A study of Mus musculus with 12 samples.

Results

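The cytochrome P450 genes described here were the protein-coding genes whose symbol begins with Cyp and a digit, without the 3 vitamin D and retinoic acid enzymes Cyp24a1, Cyp27b1 and Cyp26b1. The rule gave 54 genes of the 19760 in either count table: 53 of 15361 in the whole kidney table, 47 of 18145 in the F4/80+ table, and 46 in both. They were grouped by family into 24 arachidonate and fatty acid enzymes, 6 steroid, sterol and bile acid enzymes, 18 xenobiotic enzymes and 6 others. The libraries came from mice edited with CRISPR to be homozygous for the Arg (major) or the Trp (minor) allele of rs3184504, a coding polymorphism of the adaptor gene Sh2b3, named Arg/Arg and Trp/Trp. Every mouse had received angiotensin II, a pressor peptide that raises blood pressure, for 4 weeks, so all 4 groups carry that treatment and no library shows its effect. The polyadenylated RNA of whole kidneys was sequenced beside that of F4/80+ cells, which had been prepared from separate kidneys by a Percoll density gradient and anti-F4/80 magnetic beads. Each of the 4 groups of genotype and sample type held 3 biological replicates; strain, sex and age were not among the labels used here, nor was the number of edited lines. The 4 Y-linked genes checked had counts in all 12 libraries.

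P450 enzymes are haem proteins of the endoplasmic reticulum or mitochondria that insert an oxygen atom into lipids, steroids and foreign compounds, with electrons from a reductase or from adrenodoxin. In the kidney, most of this activity lies in the proximal tubule, where Cyp4a and Cyp4f enzymes hydroxylate arachidonic acid at its omega end to give the vasoconstrictor 20-HETE and related acids, and Cyp2c and Cyp2j enzymes make epoxyeicosatrienoic acids, which widen vessels and favour sodium excretion. Both products have been studied in angiotensin II hypertension, and several mouse members are controlled by androgens, by the lipid sensor PPAR alpha or by the aryl hydrocarbon receptor.

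Total counts ran from 19586919 to 54686600 in the kidney libraries and from 35883980 to 51603745 in the F4/80+ libraries, but mitochondrial genes took 7.86 to 9.35% of the former and 70.1 to 83.6% of the latter. Levels are therefore given as CPM, counts scaled to a library total of 1000000 nuclear protein-coding counts. Those counts numbered 17785672 to 49994052 in kidney and 6879337 to 11143970 in F4/80+ libraries. By marker sums, the F4/80+ libraries were not rich in macrophage RNA. The 12 macrophage markers summed to 139.5 to 255 CPM in kidney, and the 11 of them in the F4/80+ table to 41.5 to 213 CPM. The markers did not move together: of 11 tested between the sample types as described below, 3 were higher and 5 lower in F4/80+ libraries. Adgre1, which encodes F4/80, lay between 1.26 and 16.7 CPM in F4/80+ and between 4.11 and 8.32 CPM in kidney libraries, and no macrophage marker in either table was at 0. The 24 proximal tubule markers summed to 14007 to 43421 CPM in F4/80+ and to 32031 to 36777 CPM in kidney libraries. The name F4/80+ is thus used below for the preparation and not for a cell type. Trp/Trp kidney 1 stood apart from the other kidney libraries, at 39.6 on a first principal component where the others lay between -12.9 and -3.93, and its perirenal fat markers summed to 278 CPM against 86.5 to 108 CPM.

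The 54 genes lay in 7 clusters of neighbouring members (gaps of at most 500000 bases) with 38 genes, and 16 stood alone. The 2 clusters on chromosome 4 held the Cyp2j genes (96027534 to 96664154 in GRCm38, 7 members) and the Cyp4a genes with Cyp4b1 (115299046 to 115647723, 7 members). Chromosome 7 held 8 Cyp2a, Cyp2b, Cyp2f, Cyp2s and Cyp2t genes, chromosome 15 held 6 Cyp2d genes and chromosome 17 held 6 Cyp4f genes. Promoter sequence from RefSeq (GRCm38.p6) was found for 39 of the 54 genes. The 150 bases before the start site are printed for Cyp4b1 (chr4:115647722-115647871, minus strand), Cyp2j5 (chr4:96664120-96664269, minus strand) and Cyp2e1 (chr7:140763669-140763818, plus strand), the members of highest level per kilobase in both sample types. The same window is printed for Cyp1b1 (chr17:79715062-79715211, minus strand), which had the lowest F4/80+ level relative to kidney among the members tested. Each is written 5′ to 3′ on the gene's strand, and capitals mark a TATAAA match on either strand.
Cyp4b1: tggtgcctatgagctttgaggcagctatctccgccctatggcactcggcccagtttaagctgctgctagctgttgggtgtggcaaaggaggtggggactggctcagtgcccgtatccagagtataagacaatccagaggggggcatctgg
Cyp2j5: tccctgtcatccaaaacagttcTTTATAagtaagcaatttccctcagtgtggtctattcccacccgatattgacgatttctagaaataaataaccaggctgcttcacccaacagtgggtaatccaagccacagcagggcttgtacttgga
Cyp2e1: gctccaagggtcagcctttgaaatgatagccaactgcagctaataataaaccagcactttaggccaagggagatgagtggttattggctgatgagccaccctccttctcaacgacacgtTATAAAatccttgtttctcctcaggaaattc
Cyp1b1: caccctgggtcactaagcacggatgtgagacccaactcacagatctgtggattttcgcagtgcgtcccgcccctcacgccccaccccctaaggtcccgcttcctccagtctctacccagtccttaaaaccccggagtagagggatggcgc
In Cyp2e1 the match reads on the gene's own strand, close to the start site, and in Cyp2j5 on the opposite strand, further upstream. Within 300-base windows (250 bases before to 50 after the start), TATAAA on either strand was found for 11 of 39 P450 genes (28.2%) and in 13.6% of 32851 mouse promoters. The hormone receptor half-site AGGTCA was found for 7 of 39 (17.9%) and in 16.3% of all promoters. The core CAAAGTCCA, bound by HNF4, was found for 2 of 39 (5.13%) and in 0.475%. Those 2 were the neighbours Cyp2c68 and Cyp2c69 of 1 cluster, at means of 0.910 and 1.00 CPM in kidney. A P450 gene with several start sites was counted once if any window matched, and some windows of neighbouring copies share sequence, so these shares are descriptions only.

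Summed over all members, P450 transcripts took about 1 in 100 nuclear protein-coding counts of the kidney. The sum was 10503, 10656 and 10161 CPM in the Arg/Arg kidneys and 9324, 10563 and 11171 CPM in the Trp/Trp kidneys, a mean of 10396 ± 619 CPM (SD, n = 6). In the F4/80+ libraries it was 10157, 17774 and 19190 CPM for Arg/Arg and 11772, 6955 and 10349 CPM for Trp/Trp, a mean of 12700 ± 4769 CPM (SD, n = 6). The spread in F4/80+ libraries was several times that in kidney, and the 2 highest sums were those of Arg/Arg F4/80+ 2 and 3, which also had the highest proximal tubule marker sums. Relative to those marker sums, the P450 sum was 29.8 ± 0.639% for Arg/Arg kidneys and 29.5 ± 0.717% for the Trp/Trp kidneys (SD, n = 3 each). For F4/80+ libraries it was 44.04 ± 2.70% with the Arg allele and 46.1 ± 5.48% with the Trp allele.

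**Figure D1:**
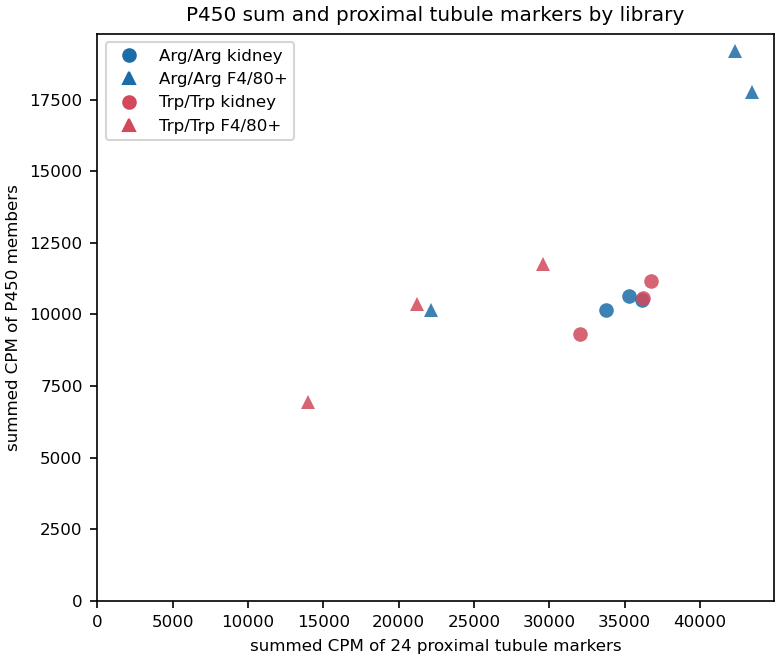
Summed CPM of all P450 members (y axis) against the summed CPM of 24 proximal tubule markers (x axis), one point for each of the 12 libraries; circles are whole kidneys, triangles F4/80+ libraries, blue Arg/Arg and red Trp/Trp. The 6 kidneys lie close together, between 9324 and 11171 CPM, while the F4/80+ libraries run from 6955 to 19190 CPM.

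A few genes carried most of this RNA. Cyp4b1, a fatty acid hydroxylase that also activates some lung and kidney toxicants, was the highest member per kilobase of exon in both sample types, at 1442 ± 155 CPM per kilobase in kidney and 2295 ± 941 in F4/80+ libraries (SD, n = 6). Cyp2j5, an epoxygenase abundant in mouse proximal tubule, stood at 728 ± 45.3 CPM per kilobase in kidney, and Cyp2e1, which oxidises ethanol and other small molecules, at 599 ± 40.3. In F4/80+ libraries the order of these was turned, with 1367 ± 690 CPM per kilobase for Cyp2e1 and 584 ± 256 for Cyp2j5. Together these 3 genes took 60.1 ± 1.80% of all P450 counts in kidney and 73.6 ± 3.99% in F4/80+ libraries.

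Behind them in kidney came Cyp2a4, a steroid hydroxylase, at 315 ± 25.3 CPM per kilobase, and the fatty acid hydroxylases Cyp4a10 at 272 ± 25.3 and Cyp4a31 at 152 ± 9.01. Cyp2j11 (132 ± 10.1), the coumarin hydroxylase Cyp2a5 (103 ± 15.6), Cyp4a14 (102 ± 26.0), Cyp2d9 (92.0 ± 5.75), Cyp2d26 (85.4 ± 7.96) and Cyp2j13 (79.4 ± 8.85 CPM per kilobase) completed the first 12. Several neighbours in this order, such as Cyp2a5, Cyp4a14 and Cyp2d9, differed by less than their SD. In F4/80+ libraries the first 12 also held Cyp4a12a (120 ± 48.0 CPM per kilobase) and Cyp2d12 (49.9 ± 18.9), in place of Cyp4a14 and Cyp2d26. With the length of the longest transcript instead of merged exons, the same 12 genes led in each sample type.

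**Figure D2:**
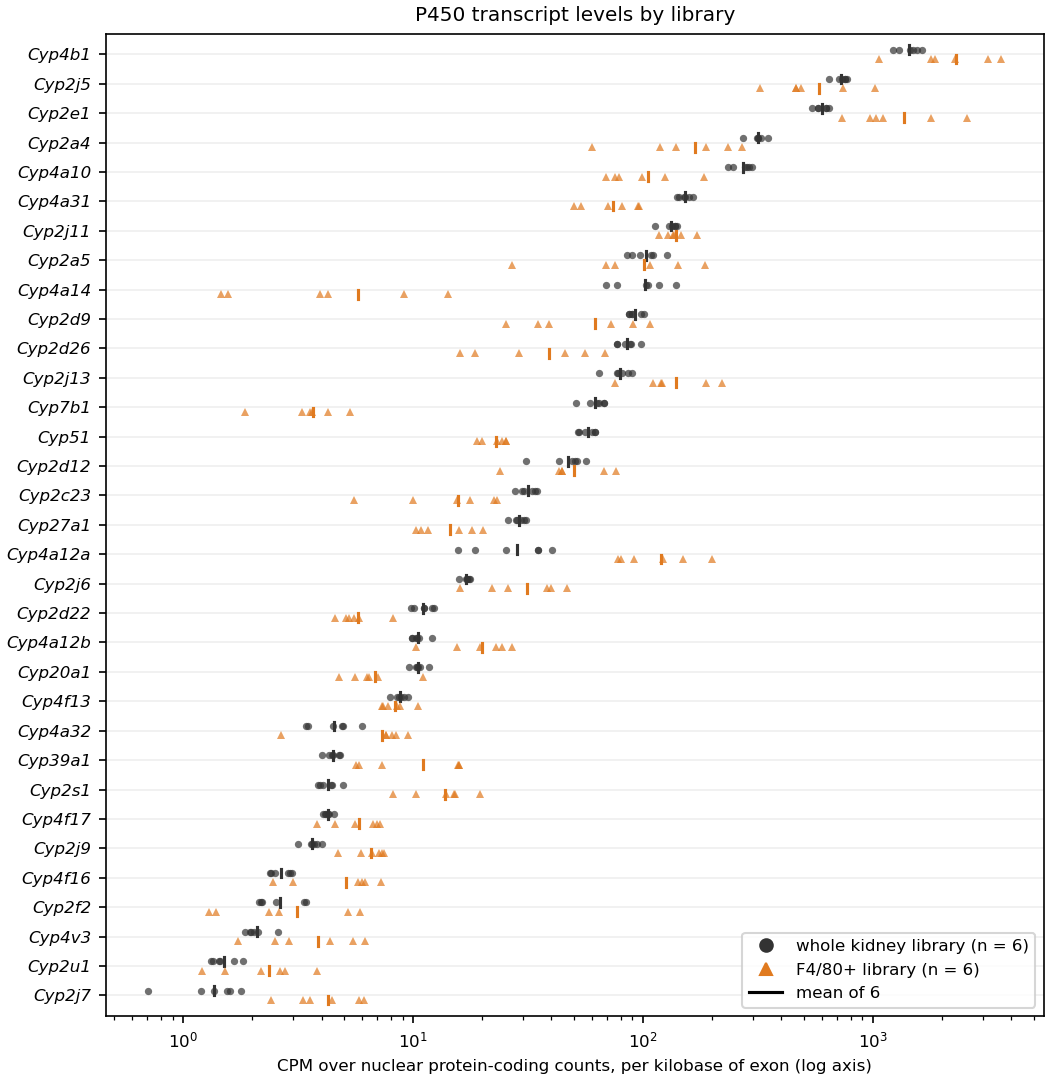
Levels of the 33 P450 genes with a mean count of at least 50 in both sample types, in CPM per kilobase of exon on a log axis; circles are the 6 kidney libraries, triangles the 6 F4/80+ libraries and vertical ticks the means. Cyp4b1 leads in both, and Cyp4a14 and Cyp7b1 show the widest separation, with F4/80+ libraries lower.

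At the other end, 12 of 53 genes in kidney and 7 of 47 in F4/80+ libraries had a mean under 1 CPM. Cyp17a1, the steroid hydroxylase and lyase of androgen synthesis, was between 0.169 and 0.478 CPM in kidney. Only the kidney table listed Cyp26a1 (0.542 to 0.850 CPM), Cyp2b9, Cyp2b23, Cyp2c68, Cyp2d10, Cyp2d34 and Cyp4f39, and only the F4/80+ table listed the retinoic acid hydroxylase Cyp26c1, at 0.179 to 1.05 CPM. The group of arachidonate and fatty acid enzymes took 68.6 ± 0.903% of P450 counts in kidney and 67.4 ± 2.15% in F4/80+ libraries (SD, n = 6). Within it, the fatty acid hydroxylase Cyp4b1 alone took 31.2 ± 1.81% and 40.3 ± 4.13% of P450 counts. The xenobiotic group took 26.5 ± 0.894% and 30.2 ± 2.61%, and the steroid group 4.50 ± 0.177% and 1.59 ± 0.699%.

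Members differed in how much they varied among kidneys. Over the 38 P450 genes with a mean count of at least 50, the median coefficient of variation was 9.55%, beside 7.41% over 12752 genes. Cyp4f17 (3.79%) and Cyp2j6 (3.94%) were among the steadiest, whereas Cyp4a12a, the androgen-driven 20-HETE synthase of male mice, reached 35.0% and Cyp4f15 101%, the latter with Trp/Trp kidney 1 far above the other kidneys. Cyp4a12a was at 97.3, 61.7 and 44.8 CPM in Arg/Arg and 38.2, 84.7 and 84.6 CPM in Trp/Trp kidneys, so each genotype held both high and low animals. Its neighbour Cyp4a14, a PPAR alpha target, was at 201, 272 and 363 CPM in Arg/Arg and 305, 179 and 269 CPM in Trp/Trp kidneys. In F4/80+ libraries the median was 38.0% for 33 P450 genes and 22.9% for 10387 genes, from 12.3% for Cyp51 and 13.1% for Cyp2j11 to 86.7% for Cyp4a14.

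The sample types were compared over all 12 libraries with edgeR's quasi-likelihood test and Benjamini-Hochberg adjustment over 13578 genes, at a threshold of 0.05. Of 44 P450 genes tested, 18 were higher and 15 lower in F4/80+ libraries than in kidney. The background was wide: 64.3% of all genes passed, 32.3% higher and 32.0% lower, so the share of members that passed, 75.0%, is not far above it. The members' median log2 fold change was 0.13, and that of all genes -0.01. Sample types did not overlap for 18 of the 44 members (40.9%), beside 42.2% of all genes. Tissue, cell preparation, mitochondrial share and the counting of each table differed together between the sample types and cannot be told apart, and in bulk RNA fewer cells of a type and less RNA per cell cannot be told apart either.

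Of the 22 arachidonate enzymes tested, 12 were higher and 6 lower, and the Cyp4a omega-hydroxylases split evenly. Cyp4a14 was between 179 and 363 CPM in the kidneys, and at 11.05, 3.79 and 10.3 CPM in Arg/Arg and 37.1, 23.8 and 4.07 CPM in Trp/Trp F4/80+ libraries. It was 17.9-fold lower there, a log2 fold change of -4.16 ± 0.41 (SE) with an adjusted p of 1.3e-06 by edgeR. The kidney and F4/80+ values did not overlap.

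Cyp4a12a, which lies in the same cluster, went the other way. Its kidney libraries had 38.2 to 97.3 CPM, whereas it was at 222, 360 and 486 CPM in Arg/Arg and at 188, 194 and 295 CPM in Trp/Trp F4/80+ libraries. That was 4.55-fold higher (log2 2.19 ± 0.28, adjusted p = 1.6e-05 by edgeR), again with no overlap. Cyp4a12b (log2 1.06 ± 0.20) and Cyp4a32 (0.80 ± 0.24) were also higher, the latter not with limma-voom (adjusted p = 0.0524), and Cyp4a10 (-1.23 ± 0.23) and Cyp4a31 (-0.90 ± 0.17) lower. Some of these are near copies: 35.8% of the 100-base windows of the Cyp4a12a transcript also occur exactly in Cyp4a12b, and 20.1% of those of Cyp4a32 and 12.7% of those of Cyp4a10 occur in another gene. Reads there could be split between them by the counting. Cyp4a14 shares no such window with another gene.

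Cyp4b1, at the end of the same cluster, was 2762 to 3672 CPM in kidney, and 4045, 8146 and 7125 CPM in Arg/Arg and 5139, 2403 and 4210 CPM in Trp/Trp F4/80+ libraries. It was 1.71-fold higher in F4/80+ libraries (log2 0.77 ± 0.24, adjusted p = 0.0109 by edgeR), although Trp/Trp F4/80+ 2 lay below every kidney. Of the epoxygenases, 4 of 6 Cyp2j genes tested were higher and none lower: Cyp2j7 (log2 1.77 ± 0.27), Cyp2j9 (0.96 ± 0.12), Cyp2j6 (0.96 ± 0.16) and Cyp2j13 (0.91 ± 0.20). Cyp2j5 (-0.24 ± 0.19, adjusted p = 0.299) and Cyp2j11 (0.20 ± 0.11, adjusted p = 0.135) did not pass edgeR's threshold. Cyp2c23, the main arachidonic acid epoxygenase of the mouse kidney, was lower instead, from 59.8 to 74.8 CPM in kidney to 11.98 to 49.9 CPM in F4/80+ libraries (log2 -0.93 ± 0.23, adjusted p = 0.00285 by edgeR).

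Among the Cyp4f genes, Cyp4f16 (log2 0.98 ± 0.16) and Cyp4f17 (0.57 ± 0.15) were higher, and Cyp4f14 (-0.81 ± 0.30) and Cyp4f15 (-1.54 ± 0.55) lower. The latter 2 calls rest on single libraries: the edgeR adjusted p of Cyp4f14, 0.0292 with all libraries, reached up to 0.0804 without Arg/Arg F4/80+ 3, Trp/Trp F4/80+ 2 or 3, Arg/Arg kidney 3, or Trp/Trp kidney 2 or 3. That of Cyp4f15, 0.0253, reached up to 0.0677 without Arg/Arg F4/80+ 1 or 2, Trp/Trp F4/80+ 3 or Trp/Trp kidney 1. Neither passed with limma-voom (adjusted p = 0.0823 for Cyp4f14 and 0.352 for Cyp4f15). Cyp4v3 (log2 0.94 ± 0.20), a fatty acid hydroxylase, and Cyp2u1 (0.71 ± 0.18) were higher. Exons of Cyp4v3 overlap the protein-coding Gm45753 on the same strand and those of Cyp2u1 an antisense gene, so reads there cannot be told apart.

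Of the 5 steroid and sterol enzymes tested, 4 were lower and 1 was higher. Cyp7b1, which hydroxylates oxysterols on the way to bile acids, was at 136, 140 and 127 CPM in Arg/Arg and 111, 146 and 146 CPM in Trp/Trp kidneys. In F4/80+ libraries it was at 7.70, 4.04 and 7.14 CPM in Arg/Arg and at 7.90, 9.28 and 11.6 CPM in Trp/Trp, 15.97-fold lower (log2 -4.00 ± 0.15, adjusted p = 5.1e-10 by edgeR), with a wide gap between the sample types. Cyp51, the lanosterol demethylase of cholesterol synthesis, was 2.31-fold lower (log2 -1.21 ± 0.11), from 229 to 273 CPM in kidney to 83.5 to 112 CPM. Its exons overlap those of Akap9 on the opposite strand, and the sources used here do not say whether counting used strand. Exons of Cyp2a4, Cyp2f2 and Cyp2s1 also overlap noncoding genes on the opposite strand, and those of Cyp2d9 and Cyp2d12 noncoding genes on the same strand. Cyp27a1, the mitochondrial sterol hydroxylase, had a log2 fold change of -0.87 ± 0.16, and Cyp46a1, the cholesterol hydroxylase known from brain, of -0.89 ± 0.30. The edgeR adjusted p of Cyp46a1 rose from 0.0196 to 0.0546 without Arg/Arg F4/80+ 3, and was 0.0605 with limma-voom. Cyp39a1, an oxysterol hydroxylase, was higher at log2 1.37 ± 0.22, from 12.3 to 14.6 CPM in kidney to 17.3 to 48.4 CPM in F4/80+ libraries.

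Of the 13 xenobiotic enzymes tested, 3 were higher and 4 lower. Cyp1b1, an aryl hydrocarbon receptor target that also metabolises oestradiol, was at 38.3, 50.2 and 64.3 CPM in Arg/Arg and 74.9, 63.3 and 66.4 CPM in Trp/Trp kidneys. In F4/80+ libraries it was at 1.02, 0.505 and 1.17 CPM in Arg/Arg and at 1.70, 6.11 and 0.656 CPM in Trp/Trp, resting on 4 to 52 reads per library. The difference was 33.6-fold (log2 -5.07 ± 0.34, adjusted p = 4.2e-08 by edgeR), and the groups did not overlap. Endothelial markers moved in the same direction but by less: 4 of 6 were lower, and their log2 fold changes ran from -0.99 to -0.095. Their sums were 333 to 436 CPM in kidney and 150 to 308 CPM in F4/80+ libraries. Of 6 perirenal fat markers only 1 was tested, and it was lower at a log2 fold change of -3.46. The part of either marker list in the Cyp1b1 difference was not tested. Cyp1a1, another receptor target, was higher (log2 1.28 ± 0.39), at 1.14 to 2.34 CPM in kidney and 1.26 to 9.58 CPM in F4/80+ libraries.

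Cyp2e1 was 2.40-fold higher (log2 1.26 ± 0.22, adjusted p = 0.000208 by edgeR), from 1169 to 1394 CPM in kidney to 1576 to 5548 CPM, with every F4/80+ library above every kidney. Cyp3a13 was higher at log2 0.98 ± 0.36, at low levels of 0.347 to 0.920 CPM in kidney and 0.489 to 3.05 CPM in F4/80+ libraries. Its edgeR adjusted p of 0.0264 reached up to 0.0787 without Arg/Arg F4/80+ 1, Trp/Trp F4/80+ 2, Arg/Arg kidney 2 or Trp/Trp kidney 1. It was 0.0514 under plain library totals and 0.0900 with limma-voom. Cyp2d26 (log2 -1.05 ± 0.27), Cyp2d22 (-0.82 ± 0.13) and Cyp2a4 (-0.79 ± 0.27) were lower, whereas the closely related Cyp2a5 was at 0.05 ± 0.30 and did not pass. Cyp2a5 shares 14.4% of its 100-base windows with other genes. Cyp2d9 (-0.44 ± 0.30) passed without Trp/Trp F4/80+ 1 or with limma-voom (adjusted p = 0.0331), and Cyp2c69 (-0.84 ± 0.44) without Trp/Trp F4/80+ 2.

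Of the remaining members, Cyp2s1, a P450 of epithelia outside the liver, was 3.42-fold higher (log2 1.77 ± 0.13, adjusted p = 1.0e-07 by edgeR), from 18.98 to 24.6 CPM in kidney to 40.6 to 96.9 CPM, with no overlap. Cyp2r1, a vitamin D hydroxylase, was higher (log2 1.18 ± 0.24), and the orphan enzyme Cyp20a1 lower (-0.51 ± 0.15). In all, 29 of the 33 calls were kept when each library was left out in turn.

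**Figure D3:**
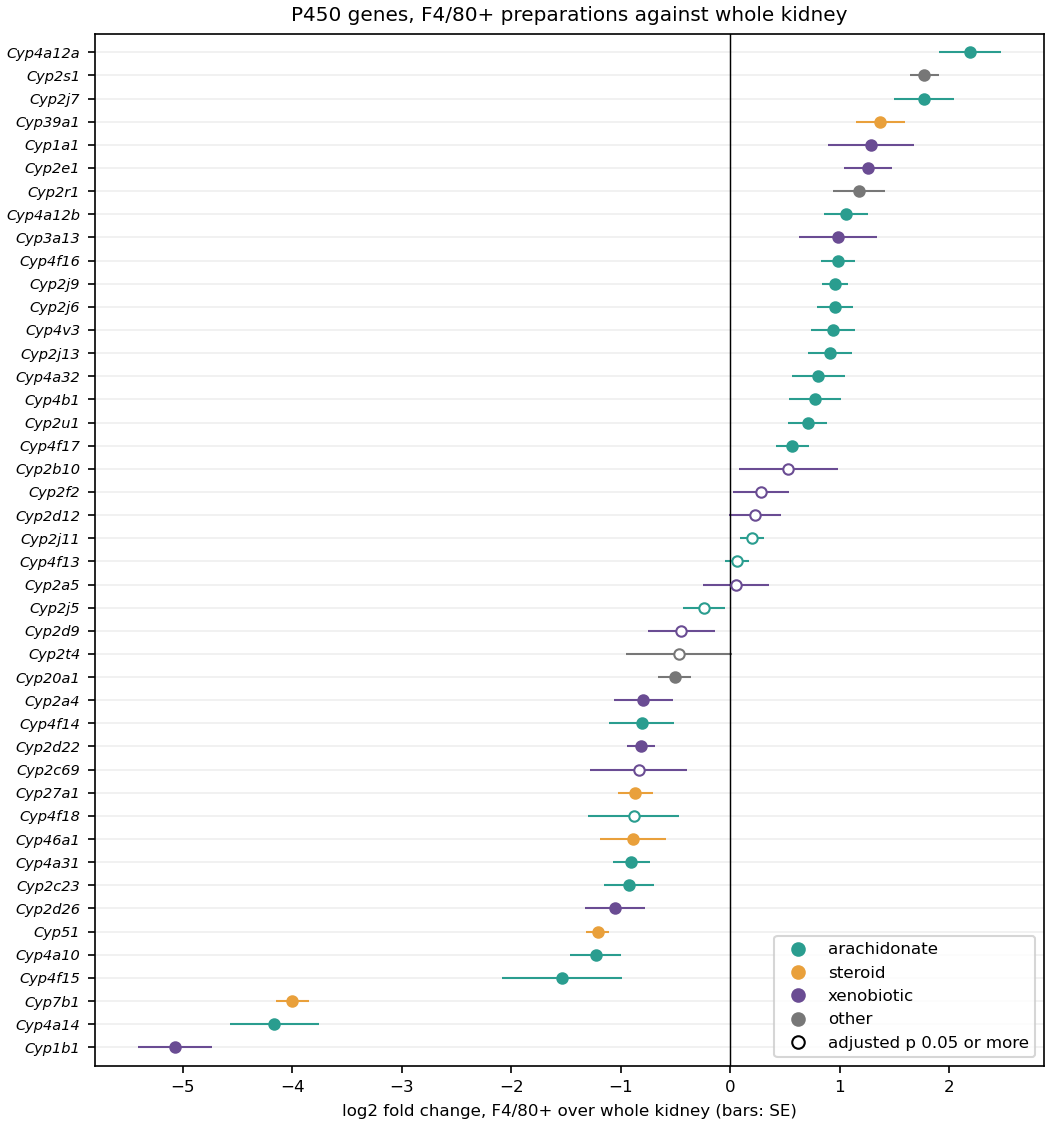
Log2 fold change of the 44 tested P450 genes, F4/80+ over whole kidney (x axis), with bars of 1 SE; filled points passed the adjusted threshold of 0.05, open points did not, and colours give the enzyme group. Cyp1b1, Cyp4a14 and Cyp7b1 lie far to the left of the rest, at -5.07, -4.16 and -4.00.

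Nephron segment markers also differed between the sample types. Of 24 proximal tubule markers, 4 were higher and 11 lower in F4/80+ libraries, with a median log2 fold change of -0.58. The segments differed: all 3 first-segment markers were lower, Slc5a2, the glucose transporter, by most (-2.92 ± 0.18). Of 2 second-segment markers, 1 was higher and none lower, with a median of 0.61. Of 4 third-segment markers, none was higher and 1 was lower, with 3 values above 0 and a median of 0.32. Of 12 distal nephron and collecting duct markers, 8 were higher and 2 lower. When libraries were scaled to the summed proximal tubule markers, 18 of the members were still higher and 10 were lower. Cyp2d22, Cyp20a1, Cyp46a1, Cyp4f15 and Cyp4f14 no longer passed, and no called member changed direction.

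Genes that work with the P450s were read from lists of their partners and pathways. Of 12 partners tested, 2 were higher and 4 lower in F4/80+ libraries: Pgrmc2, a haem-binding membrane protein (log2 -0.75 ± 0.10), Alas1, the first enzyme of haem synthesis (-0.70 ± 0.17), Cyb5b (-0.37 ± 0.10) and Hmox2 (-0.38 ± 0.12) were lower, and Cyb5r3 (0.60 ± 0.17) and Hmox1 (0.33 ± 0.13) higher. Por, the reductase that feeds microsomal P450s, was at -0.55 ± 0.26 and did not pass (adjusted p = 0.078 by edgeR). Of 22 other eicosanoid enzymes, 6 were higher and 6 lower; Ptgs2 (3.13 ± 0.50) and Ptgs1 (1.76 ± 0.16), the cyclooxygenases, were higher, and the desaturase Fads2 (-1.47 ± 0.22) lower.

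Of 14 PPAR alpha targets outside the P450s, 7 were lower and none higher, among them the thioesterase Acot1 (log2 -1.62 ± 0.16). Cyp4a10 and Cyp4a14 were lower too, and a shared cause was not tested. Of 8 androgen-dependent kidney genes, 3 were higher and none lower, among them Odc1 (1.55 ± 0.20) and Slco1a1 (1.28 ± 0.35). Among 9 regulators and targets of the aryl hydrocarbon receptor, CAR, PXR and NRF2, 5 were higher, with Tiparp at 1.82 ± 0.14, and 3 lower, with Nqo1 at -1.46 ± 0.12 and the receptor gene Nr1i2 at -1.62 ± 0.20. Of 16 steroid and sterol enzymes, 6 were higher and 4 lower, and Sc5d, a desaturase of cholesterol synthesis, was at 0.78 ± 0.11 where Cyp51 was lower. These counts stand beside the same background of 64.3%.

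Genotypes were compared within each sample type, the question the 4 groups were built for. In whole kidney no gene of 14464 passed edgeR's adjusted threshold (0.0%), and none of 48 P450 genes did, the smallest adjusted p being 0.843. At an unadjusted p under 0.05 there were 4 members of 48, beside 826 genes or 5.71% of all. DESeq2 called 15 genes (0.0977%) and no member. The count of 4 became 2, 1 and 7 without Arg/Arg kidney 1, 2 and 3, and 5, 3 and 5 without Trp/Trp kidney 1, 2 and 3. Over all genes it became 680, 492 and 920 in the former fits and 719, 1254 and 881 in the latter. The members' median log2 fold change, Trp/Trp over Arg/Arg, was -0.01 and that of all genes 0.00.

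The 4 members with the smallest unadjusted p all belonged to the xenobiotic group. Cyp2f2, known for naphthalene metabolism in the lung, was at 4.402, 4.44 and 4.35 CPM in Arg/Arg and at 6.91, 6.77 and 5.12 CPM in Trp/Trp kidneys (log2 0.50 ± 0.15, unadjusted p = 0.0075 by edgeR), and the genotypes did not overlap. Cyp1b1, at the values given above, had a log2 fold change of 0.40 ± 0.15 with overlapping genotypes. Cyp2d22 was at 38.1, 39.6 and 43.4 CPM in Arg/Arg and 43.4, 48.0 and 47.1 CPM in Trp/Trp kidneys (0.18 ± 0.08). Cyp2d9, which hydroxylates testosterone, was at 238, 260 and 268 CPM in Arg/Arg and 231, 232 and 239 CPM in Trp/Trp kidneys (-0.14 ± 0.06). Genotypes did not overlap for 6 of 48 members (12.5%), beside 10.3% of all genes.

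Cyp4f15 had the widest kidney estimate, a log2 fold change of 1.25 ± 0.60, which came from Trp/Trp kidney 1 alone. That library had 5.23 CPM and the other 5 between 0.803 and 1.18 CPM, and without it the value was -0.018. It is the library with the high perirenal fat markers; their part in its Cyp4f15 level was not tested.

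The abundant members of the arachidonate and fatty acid group were close between the genotypes in kidney. Cyp2j5 was at 1809, 1773 and 1672 CPM in Arg/Arg and 1515, 1714 and 1767 CPM in Trp/Trp, and Cyp4b1 at 3362, 3284 and 2923 CPM in Arg/Arg and 2762, 3516 and 3672 CPM in Trp/Trp; both overlapped. All 6 Cyp2j genes tested had values below 0, between -0.09 and -0.05, and none had an unadjusted p under 0.05. Cyp4a10 was at 587, 597 and 629 CPM in Arg/Arg and 519, 496 and 611 CPM in Trp/Trp (log2 -0.17 ± 0.09), and Cyp4a31 at 397, 414 and 379 CPM in Arg/Arg and 359, 354 and 384 CPM in Trp/Trp (-0.13 ± 0.06). Cyp27a1 (0.13 ± 0.06) had the smallest unadjusted p among the steroid enzymes, 0.055 by edgeR. None of these passed the adjusted test.

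Of the pathway lists, none had a gene past the adjusted threshold in kidney. The share of all genes with an unadjusted p under 0.05 was 5.71%. Among 15 PPAR alpha targets, 13 had values below 0 and 4 an unadjusted p under 0.05: Ehhadh (log2 -0.29 ± 0.06), Pex11a (-0.32 ± 0.08), Slc25a20 (-0.24 ± 0.09) and Acot2 (-0.16 ± 0.07), with edgeR adjusted p of 0.843 for each. The sums of that list were 4458 to 4804 CPM in Arg/Arg and 3965 to 4455 CPM in Trp/Trp kidneys. Macrophage markers lay higher in Trp/Trp kidneys: their sums were 139.5 to 155 CPM in Arg/Arg and 175 to 255 CPM in Trp/Trp, and 8 of 12 had an unadjusted p under 0.05. Their part in the P450 values was not tested.

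In the F4/80+ libraries, too, edgeR called none of 15225 genes (0.0%) and none of 38 P450 genes, the smallest adjusted p being 0.605. DESeq2 called no member and 14 genes, 0.226% of the 6183 to which it gave an adjusted p. Genes and members without an adjusted p could not be called. At an unadjusted p under 0.05 there were 11 of 38 members, 9 lower and 2 higher in Trp/Trp, beside 1224 genes or 8.04% of all, 3.61% lower and 4.43% higher. The count became 19, 5 and 2 without Arg/Arg F4/80+ 1, 2 and 3, and 17, 3 and 9 without Trp/Trp F4/80+ 1, 2 and 3. Over all genes it moved as well, to 2788, 692 and 364 in the former fits and 1768, 816 and 811 in the latter. The median of the members was -0.18, and that of all genes 0.01. Genotypes did not overlap for 7 members (18.4%), beside 10.5% of genes.

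The 9 members below 0 with an unadjusted p under 0.05 ranged from leading genes such as Cyp2e1 to genes of a few CPM. Cyp2e1 was at 2219, 3875 and 5548 CPM in Arg/Arg and at 2091, 1576 and 2389 CPM in Trp/Trp F4/80+ libraries (log2 -1.11 ± 0.39, unadjusted p = 0.016 by edgeR), with the highest Trp/Trp library above the lowest Arg/Arg library. Cyp2j5 was at 1136, 1738 and 2406 CPM in Arg/Arg and 1087, 755 and 1091 CPM in Trp/Trp (-1.003 ± 0.36, unadjusted p = 0.017), without overlap but with a narrow gap. Cyp2j13 was at 521, 886 and 1035 CPM in Arg/Arg and 563, 355 and 570 CPM in Trp/Trp (-0.87 ± 0.36), and Cyp4a12a, at the values given above, had -0.82 ± 0.35. Cyp2c23 was at 33.4, 48.4 and 49.9 CPM in Arg/Arg and 38.0, 11.98 and 21.7 CPM in Trp/Trp (-0.997 ± 0.41). Cyp2d26 (-1.07 ± 0.46) and Cyp2a5 (-1.13 ± 0.50) had the same sign, and so did Cyp4b1 (-0.86 ± 0.41), whose unadjusted p was 0.059 by edgeR.

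Proximal tubule markers also lay below 0 in this comparison: all 24 did, from -1.79 to -0.49 with a median of -0.87, and 14 had an unadjusted p under 0.05, whereas 15 of the 38 P450 members lay above 0. Their sums were 22169, 43421 and 42291 CPM in Arg/Arg and 29593, 14007 and 21199 CPM in Trp/Trp. Scaling libraries to those sums shifted values over all genes, though not each gene by the same amount. The median of all genes went from 0.01 to 0.84. That of the members went from -0.18 to 0.65, with 31 of 38 members above 0. On that scale Cyp2e1 had a log2 fold change of -0.12 ± 0.49, Cyp2j5 of -0.06 ± 0.50, Cyp4b1 of 0.01 ± 0.47 and Cyp2c23 of -0.26 ± 0.59. Cyp2j13 (0.058 ± 0.51) and Cyp4a12a (0.20 ± 0.53) went from below to above 0, and both lay below the median of all genes. As a share of the proximal tubule sum, Cyp2e1 was 10.7 ± 2.18% in Arg/Arg and 9.86 ± 2.42% in Trp/Trp, and Cyp2j5 4.94 ± 0.858% and 4.74 ± 0.930% (SD, n = 3). Other abundant members had higher mean shares in Trp/Trp, with overlapping libraries: Cyp4a10 took 0.607 ± 0.119% and 1.06 ± 0.328%, Cyp2j11 0.881 ± 0.342% and 1.22 ± 0.385%, and Cyp4a31 0.610 ± 0.172% and 0.781 ± 0.131%. Unscaled, Cyp4a10 had a genotype value of 0.02 ± 0.40, Cyp2j11 of -0.38 ± 0.24 and Cyp4a31 of -0.43 ± 0.32. Distal nephron markers (12 of 12 above 0, median 0.73) and macrophage markers (10 of 11 above 0, median 1.10) had the opposite sign. Liver markers had the same sign as the proximal tubule markers, with all 3 tested below 0 and a median of -1.05. The part of any of these marker lists in the P450 values was not tested.

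Cyp2r1 and Cyp2f2, which are lower in level, had larger estimates. Cyp2r1 was at 3.34, 4.55 and 5.48 CPM in Arg/Arg and 1.35, 2.47 and 1.71 CPM in Trp/Trp (log2 -1.46 ± 0.44, unadjusted p = 0.0065 by edgeR), without overlap. Cyp2f2 was at 4.80, 11.9 and 10.6 CPM in Arg/Arg and 5.29, 2.82 and 2.63 CPM in Trp/Trp (-1.49 ± 0.47), the sign opposite to that in kidney. Scaled to the proximal tubule markers, where the median of all genes is 0.84, these values were -0.38 ± 0.84 and -0.56 ± 0.76.

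Against this direction, Cyp4f16, a fatty acid hydroxylase of the family that inactivates leukotrienes, was at 17.7, 7.58 and 9.20 CPM in Arg/Arg and 18.5, 22.2 and 19.04 CPM in Trp/Trp (log2 0.70 ± 0.28, unadjusted p = 0.03 by edgeR), and the genotypes did not overlap. Cyp3a13 was at 1.02, 0.632 and 0.489 CPM in Arg/Arg and 1.08, 3.05 and 2.49 CPM in Trp/Trp (1.49 ± 0.58). Cyp4a14, at the values given above, had an estimate of 1.28 ± 0.61 with overlapping genotypes. Scaled to the proximal tubule markers, Cyp4f16 was at 1.39 ± 0.67, Cyp3a13 at 2.43 ± 0.97 and Cyp4a14 at 1.94 ± 0.72, each with an edgeR adjusted p of 0.393, on the scale where the median of all genes is 0.84.

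**Figure D4:**
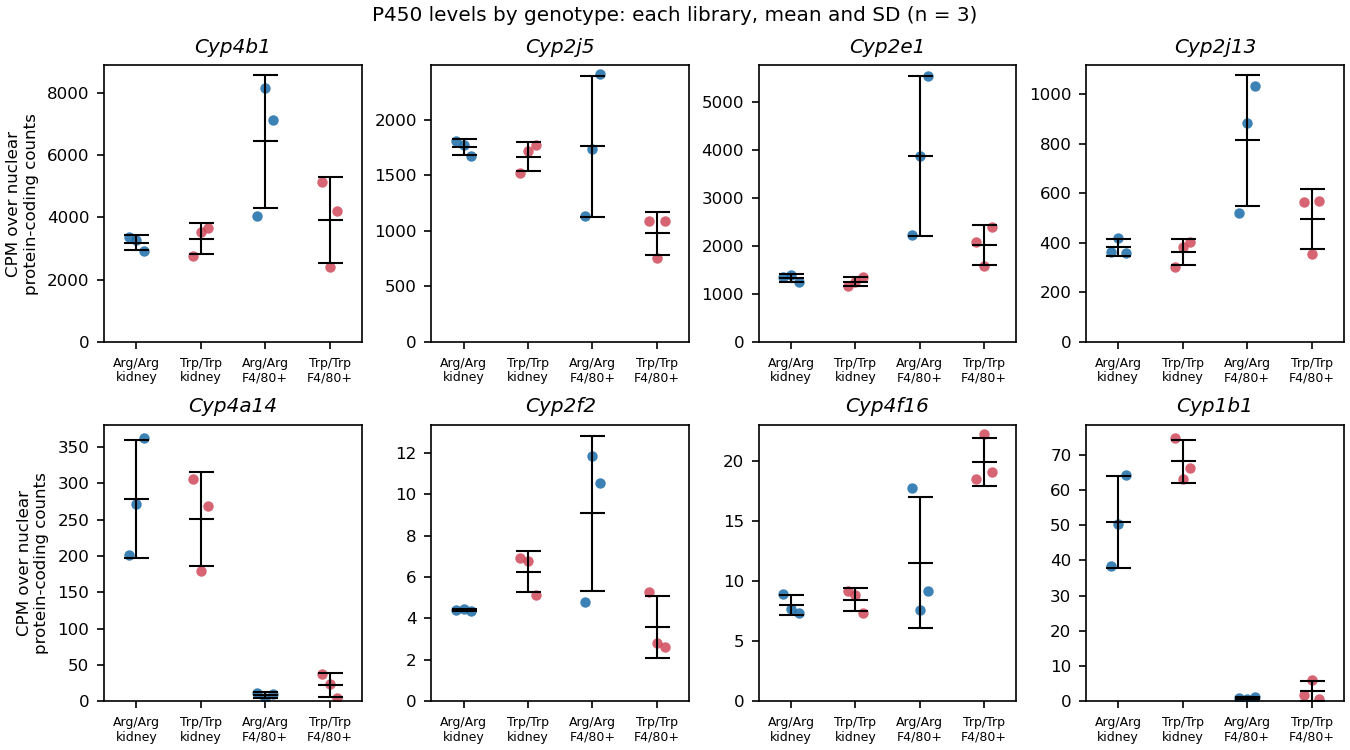
CPM over nuclear protein-coding counts (y axis, from 0) of 8 P450 genes in each library by genotype and sample type (x axis); points are libraries (n = 3 a group), horizontal bars the mean and whiskers the SD, blue Arg/Arg and red Trp/Trp. Cyp2e1 and Cyp2j5 lie close together in kidney and lower in Trp/Trp than in most Arg/Arg F4/80+ libraries, while Cyp4a14 and Cyp1b1 are near 0 in F4/80+ libraries of both genotypes.

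Other genes of the pathways were likewise uncalled in F4/80+ libraries. Of 20 eicosanoid enzymes, 5 had an unadjusted p under 0.05, all higher in Trp/Trp, among them the epoxide hydrolase Ephx1 (log2 0.98 ± 0.25), which can act on the products of Cyp2c and Cyp2j enzymes, the prostaglandin D synthase Ptgds (1.57 ± 0.49), the phospholipase Pla2g4a (0.86 ± 0.30) and Ptgis (0.99 ± 0.43). Of 8 androgen-dependent genes all had values below 0 and 5 an unadjusted p under 0.05, among them Akr1c21 (-0.96 ± 0.36). Their median of -0.88 lay beside -0.87 for the 24 proximal tubule markers, all below 0, and Slc7a13 is in both lists. Of 16 steroid enzymes, 3 had an unadjusted p under 0.05, all below 0, among them Hsd3b2 (-1.11 ± 0.34) and Srd5a2 (-1.25 ± 0.48). The 12 P450 partners and the 9 receptor genes and targets had none; Cyb5a (-0.65 ± 0.36) and Gsta2 (-0.79 ± 0.36) had the smallest p in each. The smallest edgeR adjusted p in these lists was 0.605. These counts stand beside 8.04% of all genes with an unadjusted p under 0.05, 3.61% lower and 4.43% higher in Trp/Trp.

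Whether the genotype difference itself differed between the sample types was tested as an interaction over the 12 libraries. edgeR called none of 13578 genes (0.0%) and none of 44 members, the smallest adjusted p being 0.684, and DESeq2 called 7 genes (0.051%) and no member. At an unadjusted p under 0.05 there were 8 members, 7 below 0 and 1 above, beside 921 genes or 6.78% (3.56% of all below and 3.22% above 0). Cyp2f2 (log2 -2.00 ± 0.50) and Cyp2r1 (-1.87 ± 0.47) had the smallest p, followed by Cyp2j5 (-0.94 ± 0.39), Cyp3a13 (1.65 ± 0.69), Cyp2e1 (-1.02 ± 0.43), Cyp2c23 (-1.06 ± 0.45), Cyp2a5 (-1.38 ± 0.60) and Cyp27a1 (-0.73 ± 0.32). Without Arg/Arg F4/80+ 1, the Arg/Arg library with the lowest proximal tubule sum, edgeR called 580 genes, of the 13733 entering before its filter. It called 6 of 45 members. Of those members, Cyp27a1, Cyp2e1, Cyp2f2, Cyp2j5 and Cyp2r1 were below 0 and Cyp4f16 above. The genotype fit within F4/80+ without that library called 0 genes, the smallest member adjusted p being 0.0825 by edgeR. Without each library in turn, between 2 members (without Arg/Arg F4/80+ 2 or Trp/Trp kidney 3) and 21 (without Arg/Arg F4/80+ 1) had an unadjusted p under 0.05, with 16 without Trp/Trp F4/80+ 1, 3 without Trp/Trp F4/80+ 2 or Arg/Arg kidney 1, and 4 without Arg/Arg F4/80+ 3, Arg/Arg kidney 2 or 3 or Trp/Trp kidney 2. Over all genes, the unadjusted count was 2850 without Arg/Arg F4/80+ 1, 1971 without Trp/Trp F4/80+ 1 and 768 without Arg/Arg F4/80+ 2. The 6 member calls thus turn on Arg/Arg F4/80+ 1. In the interaction with all libraries, 10 of 24 proximal tubule markers had an unadjusted p under 0.05, all below 0.

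**Figure D5:**
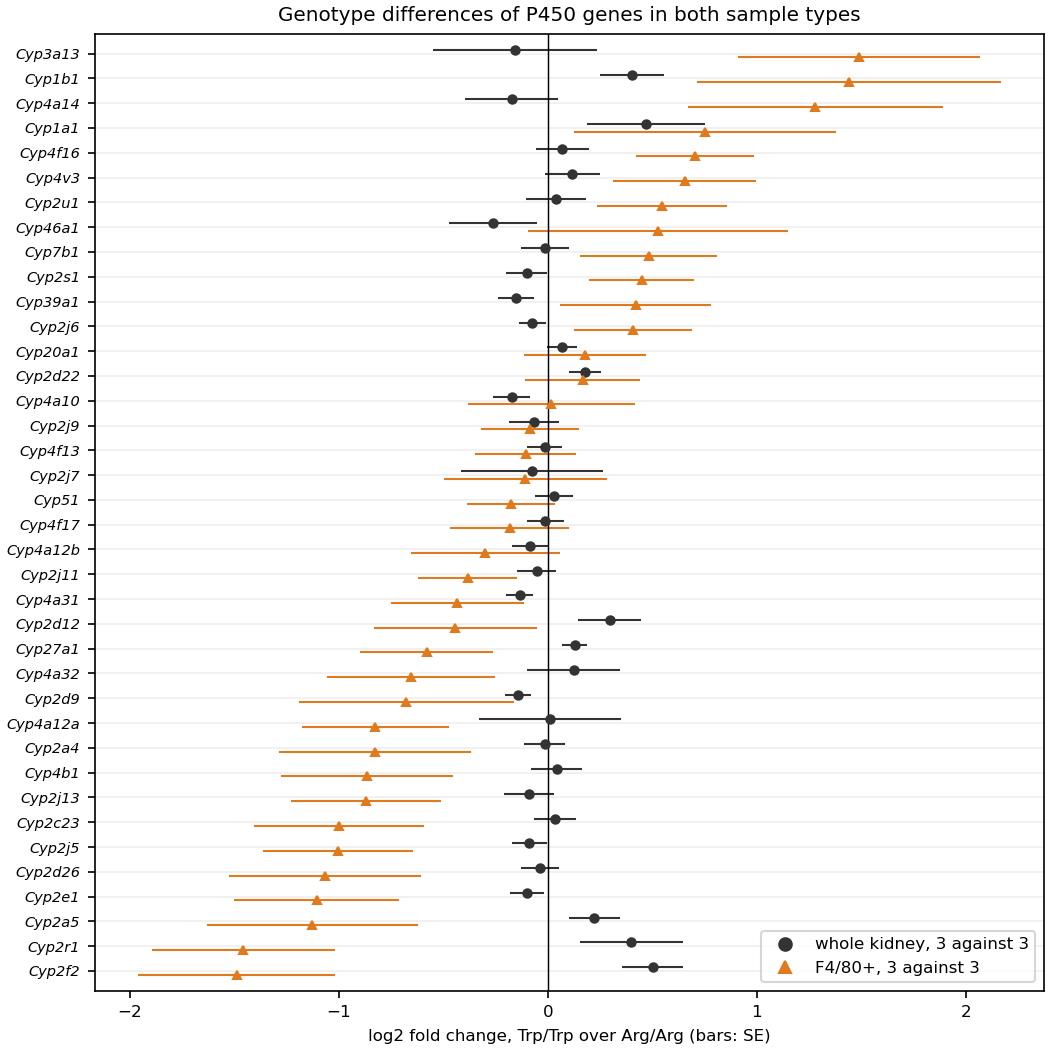
Log2 fold change, Trp/Trp over Arg/Arg (x axis), of the 38 P450 genes tested in both sample types, with bars of 1 SE; circles are whole kidney and triangles F4/80+ libraries, 3 against 3 in each. Kidney values lie near 0 with short bars, F4/80+ values spread from -1.49 (Cyp2f2) to 1.49 (Cyp3a13), and none passed the adjusted threshold of 0.05.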

How the data were processed

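Polyadenylated RNA was sequenced in 12 libraries, 4 groups of 3, grouped by the labels. STAR, DRAGEN, DESeq2 and mm10 are named in the submitters' processing notes, without versions or roles. The authors deposited raw counts per gene and library in a table per sample type; 15356 of 15361 kidney and 18124 of 18145 F4/80+ identifiers matched GENCODE M21, which gave coordinates and exon lengths. The authors' deposited log2 fold changes, p-values, ratios, scores and signal columns were not used for any result here.

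Counts were fitted with edgeR 4.0.16 in R 4.3.3 (filterByExpr with a minimum count of 10 and a minimum total of 15, TMM, quasi-likelihood test, Benjamini-Hochberg adjustment over all genes tested, threshold 0.05). Genotype was fitted within each table, and sample type and interaction over the 13733 nuclear protein-coding genes of both tables. The SE is the log2 fold change divided by the square root of F, so it restates the test. The filter tested 48 members in kidney, 38 in F4/80+ and 44 in both; the others were given as levels. CPM used each table's own nuclear protein-coding counts, which limit low members to few reads. Alternatives were DESeq2 1.42.0, limma 3.58.1 (voom), RLE scaling, plain totals, no filter, nuclear protein-coding genes only, a replicate block, and each library left out; scaling to proximal tubule markers was added after seeing the data. Scripts were tested on simulated data, and figures were drawn with matplotlib 3.10.9 in Python 3.11.15.

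Members and lists were chosen with earlier results of these data known. Named members were the 12 of highest level per kilobase, the 8 of smallest genotype p and the 8 largest differences each way between sample types with a mean count of at least 50, arachidonate members at that count, and those in 1 table; lists gave up to 4 genes by genotype p. Cyp3a13, Cyp2r1, Cyp46a1, Cyp20a1, Cyp17a1, Cyp2c69, Cyp4f18, Cyp2j8 and the pathway genes named for sample type fell outside this rule and were chosen after their values were seen. p-values measure the spread between replicates, which the labels call biological. Some genes of the pathway lists are counted in them but not reported here by name.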

Additional observations from a re-analysis of the deposited data

Results flagged for a closer look

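The F4/80+ table also listed 5 P450 pseudogenes, which the rule leaves out and which were not compared between groups. Their highest raw count in a library was 32 for Cyp2j15-ps, 16 for Cyp2j7-ps2, 13 for Cyp4f41-ps, 8 for Cyp4b1-ps2 and 5 for Cyp2a21-ps, each above a floor of 3 reads. Cyp2j15-ps had reads in all 6 libraries, between 7 and 32, and Cyp2a21-ps and Cyp4b1-ps2 were at 0 in at least 1.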

How the results depend on the processing

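No member was called for genotype by edgeR or DESeq2 under any alternative run in either sample type. DESeq2 called 15 genes in kidney, 14 in F4/80+ and 7 in the interaction, where edgeR called 0. The members with an unadjusted p under 0.05 numbered 4 in kidney (1 to 7 without each library in turn). In F4/80+ they numbered 11 (2 to 19), with 6 under plain library totals, 5 scaled to proximal tubule markers and 3 with a replicate block, and in the interaction 8 (2 to 21), with 5 under marker scaling and 5 with the block.

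The members' median in F4/80+ was -0.18 (-0.46 to -0.11 without each library), 0.033 under plain totals, where that of all genes was 0.23, and 0.65 under marker scaling, where it was 0.84. In the interaction the median was -0.20 (-0.40 to -0.090), and 0.65 under marker scaling. The interaction gave 0 to 580 genes, with up to 1 member higher and 5 lower, without each library. For sample type, the members' median was 0.13 (-0.0050 to 0.29 without each library), 0.00 under plain totals and 0.40 under marker scaling, which called 5666 genes instead of 8734; 71.1% of its calls were higher, 41.3% under plain totals and 50.3% with TMM. Cyp4f15 in kidney went from 1.25 to -0.018 without Trp/Trp kidney 1 (up to 1.65 without another library). Under marker scaling the members above 0 in F4/80+ went from 15 to 31 of 38. Among the 8 named there for smallest genotype p, Cyp2j13 (0.058) and Cyp4a12a (0.20) turned. The cause of these changes was not tested.

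Same-numbered libraries did not deviate together (correlations of -0.08 to -0.01 in kidney and -0.49 to 0.18 in F4/80+), so the block pairs numbers only. For sample type, the block lost the calls of Cyp4b1 and Cyp4f14, and limma-voom those of Cyp4a32, Cyp46a1, Cyp4f15, Cyp3a13 and Cyp4f14. Limma-voom also called Cyp2d9, plain totals lost Cyp3a13 and called Cyp4f18, and DESeq2, the fit without a filter and several without 1 library called Cyp2j8, which the filter otherwise leaves untested. With 3 libraries a group and 6879337 to 11143970 nuclear counts, F4/80+ genotype estimates had wide SEs (0.39 for Cyp2e1), and members under 1 CPM rest on few reads.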
